A study of Homo sapiens with 6 samples.

Results

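Glycolysis splits glucose into pyruvate, and lactate dehydrogenase converts pyruvate to lactate. Hypoxia-inducible factor (HIF) is a transcription factor whose alpha subunit is marked for destruction by oxygen-dependent prolyl hydroxylases. When oxygen is low it accumulates and induces many glycolytic enzymes together with targets such as VEGFA, BNIP3 and CA9. Protein kinase A, the kinase bound and blocked by the protein kinase inhibitor (PKI) family, is known to act on some isozymes that set glycolytic flux, and LDHA transcription is known to respond to cAMP. The genes described here are 34 members of these linked programmes, taken as the rows of the expression table whose symbol equals a member's, out of 30960 rows in all. They comprise 2 glucose transporters, 17 glycolytic enzymes, 4 regulators of glycolytic flux, HIF1A with 2 prolyl hydroxylases, and 8 other HIF targets. Many of the enzymes are HIF targets as well, so the classes are roles and not separate regulation.

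RNA was taken from HEK293 cells, an established line from human embryonic kidney, 48 h after lipid transfection with plasmid DNA at 158 ng per cm2. The PKI group (libraries A, B and C) expressed a GFP fusion of PKI1-24, and the control group (inPKI, libraries A, B and C) a GFP fusion of inPKI1-24. Both groups thus carried a GFP fusion and the transfection reagent, all libraries come from 1 line, and the labels give neither the share of cells that took up plasmid nor a change in oxygen. No label ties the 3 libraries of a group to separate cultures, so p-values measure the spread between these libraries, which may be technical.

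The rows of the expression table held between 17244715 and 23589438 reads per library. These were recovered from the steps of the deposited CPM, reads scaled to a common library size. Reads outside these rows are not in that count. PKIA, which encodes a PKI protein, was at 9.05, 11.3 and 8.65 CPM in the inPKI libraries and at 43.25, 42.3 and 46.1 CPM in the PKI libraries (limma, log2 change 2.08 ± 0.088 SE, adjusted p = 5.64e-09), with plasmid and endogenous transcript not separated. PKI A and PKI C stood apart: chi-square per degree of freedom was 13.7 to 42.5 in the 9 library pairs that include either, against 2.31 to 4.82 in the 6 pairs among the other libraries. Of 10 genes typical of the HEK293 line, 10 reached 1 CPM, with a summed level of 907 to 931 CPM in inPKI and 802 to 919 CPM in PKI. Markers of leukocytes, hepatocytes, fibroblasts and keratinocytes reached 1 CPM in 1 of 5, 0 of 3, 2 of 5 and 3 of 4 genes. The keratinocyte markers summed to 27.9 to 51.7 CPM in inPKI and 25.6 to 29.8 CPM in PKI, and their part in the results below was not tested.

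No member passed the test of PKI against inPKI. Of 34 members, 33 passed the filter on low values (1 CPM in at least 3 of 6 libraries), and 0 of the 33 had an adjusted p below 0.05 in limma on log2(CPM + 1), where 18 of 14275 genes tested did (0.126%). The count was also 0 in edgeR's quasi-likelihood test (11 of 14275 genes, 0.0771%) and in DESeq2 (216 of 14275 genes, 1.51%). DESeq2 gave an adjusted p for 25 of the 33 members and for 7909 of the 14275 genes. Its 1.51% is thus a share that includes genes without an adjusted p. At an unadjusted p below 0.05 limma had 1 member (ENO2), against 13.7% of all genes (7.53% higher and 6.16% lower in PKI). The count was 3 members in edgeR (ENO2 and HIF1A higher, LDHB lower in PKI), or 9.09% against 15.6% of all genes. In DESeq2 it was 6, or 18.2% against 11.9% of all genes. Of these, 1 was higher in PKI (ENO2) and 5 were lower (GAPDH, LDHA, LDHB, PKM and TPI1). Each of the 5 had its lowest value in PKI C. Groups did not overlap in 5 of 33 members, or 15.2%, where 19.7% of all genes had such groups.

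The data bound the size of most differences. The 95% interval of the fold change, taken gene by gene on the log2(CPM + 1) scale, lay within 1.25-fold in either direction for 27 of 33 members, against 65.9% of all genes. It lay within 1.5-fold for 32 of 33 members, against 94.9% of all genes. ENO2 was the exception, with an interval of 1.12-fold to 1.51-fold. The median level was 73.1 CPM for the members tested and 21.3 CPM for all genes tested. Interval width can depend on level, and the part of level in these shares was not tested. The log2 change was above 0 in 9 members and below 0 in 24, with a median of -0.055 where the median of all genes tested was -0.0074. In bulk libraries a change in the share of cells that express a gene cannot be told apart from a change in RNA per cell.

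**Figure D1:**
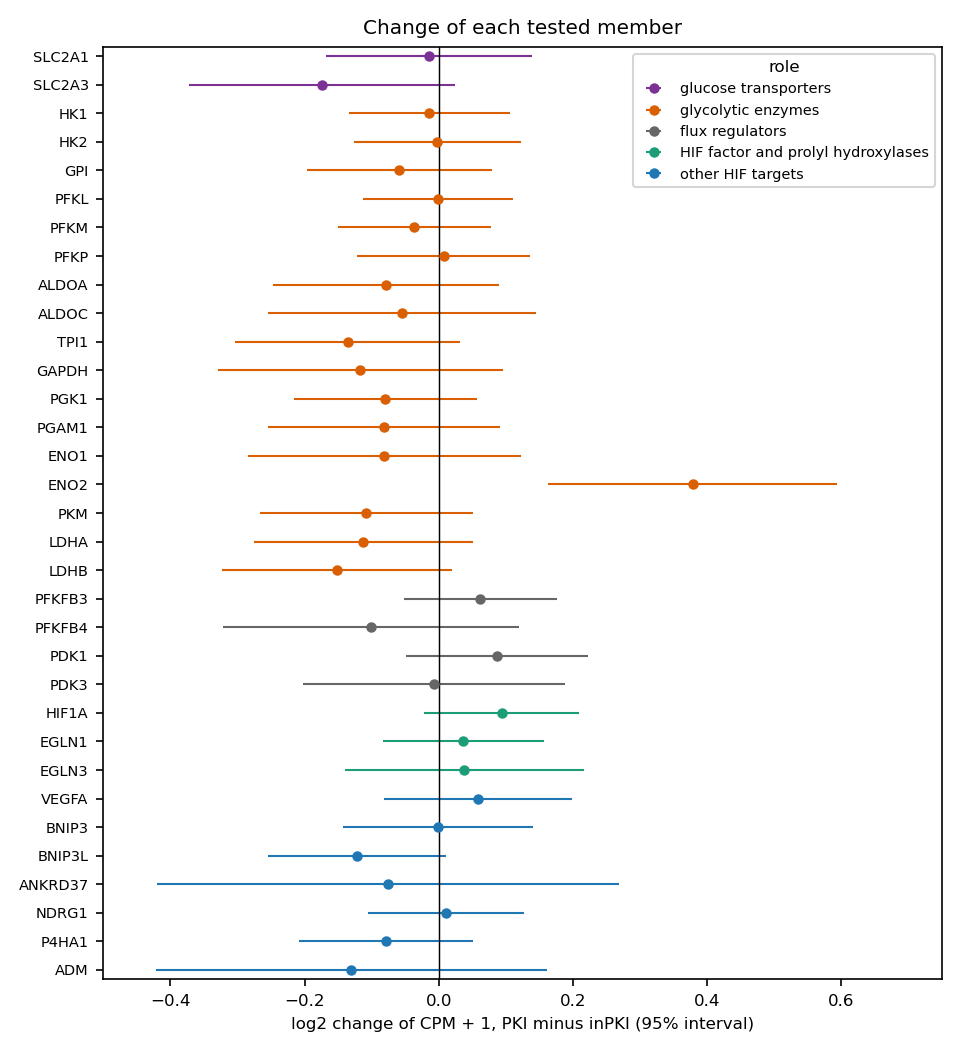
Change of the 33 members tested, as PKI minus inPKI in units of log2(CPM + 1), ordered by role, with points for the estimate and bars for its 95% interval in limma (n = 3 libraries per group). The intervals of most members span 0, and ENO2, at 0.38, lies farthest from 0.

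Stretches of the promoters of 5 members are given because they hold letters that HIF or the cAMP-responsive factor CREB is known to bind. They were picked for holding such matches, and of the 5 members only LDHA is shown with the cAMP response element. Sequences are from RefSeq (GRCh38.p14) windows of 250 bases before to 50 after an annotated start, 5′ to 3′ on the gene's strand. Capitals mark ACGTG or GCGTG (core letters of the hypoxia response element, searched on both strands, so that CACGT and CACGC are their reverse complements) or, in the second LDHA line, the full cAMP response element. Positions count from the annotated start.
LDHA, chr11:18394471-18394499, plus strand, -92 to -64: actcaCACGTGggttcccgCACGTccgcc
LDHA, chr11:18394501-18394530, plus strand, -62 to -33: gccccccccgcTGACGTCAgcatagctgtt
PGK1, chrX:78104025-78104081, plus strand, -223 to -167: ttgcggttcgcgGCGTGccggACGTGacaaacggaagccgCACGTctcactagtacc
ENO2, chr12:6914450-6914478, plus strand, -130 to -102: acccgcgctcgtACGTGcgcctccgccgg
BNIP3, chr10:131982014-131982075, minus strand, -152 to -91: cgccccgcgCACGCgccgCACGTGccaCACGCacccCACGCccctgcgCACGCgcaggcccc
ANKRD37, chr4:185396676-185396705, plus strand, -165 to -136: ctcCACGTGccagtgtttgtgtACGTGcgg

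Windows were found for 30 of the 34 members (53 windows), with none for SLC2A3, VEGFA, BNIP3L and NDRG1. ACGTG was in 23 of these 53 windows (43.4%), and in 21.4% of all 35116 RefSeq windows. GCGTG was in 39.6% of the members' windows and 36.5% of all windows. TGACG, the shorter site of the cAMP response element, was in 20.8% of the members' windows and 24.6% of all windows. The comparison depends on the unit. By gene, with a match in any window, ACGTG was in 63.3% of members and 24.9% of all 27305 genes. GCGTG was in 60.0% and 40.6%, and TGACG in 33.3% and 28.4%. Members have more windows per gene than genes at large, and so more places for a match. The full element, TGACGTCA, was in 1 member window, that of LDHA (1.89%, against 1.85% of all windows). It contains TGACG on both strands, and TGACG and ACGTG can share letters where TGACGTG occurs. The stretches of LDHA, ENO2 and ANKRD37 lie within a first exon of some GENCODE 29 transcript of the gene, and those of PGK1 and BNIP3 lie outside annotated exons. These are matches of letters, not measured binding sites.

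The glucose transporters bring sugar into the cell. SLC2A1 (GLUT1), the widely expressed transporter, was at 37.1, 34.6 and 41.1 CPM in inPKI and 38.7, 38.5 and 34.3 CPM in PKI. The groups overlapped, and the log2 change was -0.015 ± 0.072 (SE; limma adjusted p = 0.948). SLC2A3 (GLUT3), a transporter of high glucose affinity, was at 10.8, 11.6 and 13.65 CPM in inPKI and 10.6, 10.05 and 10.9 CPM in PKI. PKI libraries A and B were below all of inPKI and PKI C was between inPKI A and B, with a log2 change of -0.17 ± 0.093 (SE; limma adjusted p = 0.429). Per kilobase of the longest principal transcript, SLC2A1 made up 77.0% ± 1.31 (SD, n = 3) of the 2 transporters in inPKI and 79.0% ± 1.72 (SD, n = 3) in PKI. Reads of SLC2A3 can be split with its 3 pseudogene rows, of which SLC2A3P1 was the highest and which together held 41.6% as many CPM as SLC2A3 in inPKI and 48.0% in PKI.

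Among the 17 glycolytic enzymes 0 passed the test, 2 had a log2 change above 0 and 15 below 0, and the median was -0.079. The range over the enzymes was -0.15 to 0.38. Groups did not overlap in 4 of the 17 (23.5%, against 19.7% of all genes): ENO2, with PKI above, and TPI1, PKM and LDHA, with PKI below.

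Hexokinases commit glucose to the cell by phosphorylating it. HK1 was at 116, 117 and 109 CPM in inPKI and 114, 118 and 107 CPM in PKI. HK2 was at 104, 99.4 and 108 CPM in inPKI and 103.5, 110 and 97.8 CPM in PKI. Both differed by far less than the spread between libraries, with log2 changes of -0.014 ± 0.056 and -0.0022 ± 0.058 (SE). HK1 made up 63.7% ± 1.93 (SD, n = 3) of the pair per kilobase in inPKI and 63.5% ± 0.395 (SD, n = 3) in PKI. With the median transcript length in place of the longest principal one, HK1 made up 88.8% in inPKI and 88.7% in PKI.

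GPI interconverts glucose 6-phosphate and fructose 6-phosphate, and was at 319, 318 and 322 CPM in inPKI and 333, 308 and 282 CPM in PKI. PKI A was the highest of the 6 libraries and PKI C the lowest. The phosphofructokinases PFKL, PFKM and PFKP catalyse the committed step of glycolysis. PFKL was at 120.2, 118.5 and 114.1 CPM in inPKI and 114.8, 122.1 and 115.6 CPM in PKI. PFKM was at 91.8, 92.8 and 92.6 CPM in inPKI and 89.0, 95.2 and 86.2 CPM in PKI. PFKP was at 69.6, 73.2 and 64.3 CPM in inPKI and 68.7, 72.8 and 66.6 CPM in PKI. The groups overlapped for all 3, with log2 changes of -0.0012, -0.037 and 0.0074. Their order per kilobase depended on which transcript length was used, so none is given.

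Aldolase splits fructose bisphosphate into a pair of triose phosphates. ALDOA was at 901, 888.5 and 877 CPM in inPKI and 888, 894 and 751.5 CPM in PKI. ALDOC was at 12.9, 13.1 and 13.9 CPM in inPKI and 13.0, 14.4 and 11 CPM in PKI. In both genes PKI C was the lowest library while PKI A and PKI B lay in or near the inPKI range. ALDOA made up 98.1% of the aldolases per kilobase in both groups.

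The lower part of the pathway, from triose phosphate to pyruvate, holds the most abundant members. TPI1, which interconverts the triose phosphates, was at 862, 867 and 872 CPM in inPKI and 849, 823 and 703 CPM in PKI. All PKI libraries were below all inPKI libraries, but by little in PKI A and PKI B, and the log2 change of -0.14 ± 0.079 (SE) did not pass the test (limma adjusted p = 0.456). GAPDH, the oxidising step, was at 2322, 2332 and 2335 CPM in inPKI and 2328, 2223 and 1916 CPM in PKI. PKI A lay within the inPKI range and PKI C was lowest (log2 change -0.12 ± 0.099 SE, limma adjusted p = 0.621). PGK1 and PGAM1, the kinase and mutase of phosphoglycerate, had log2 changes of -0.080 ± 0.064 and -0.082 ± 0.081 (SE). PGK1 was at 461, 456.5 and 454 CPM in inPKI and 434, 462 and 403 CPM in PKI. PGAM1 was at 598, 611.5 and 625 CPM in inPKI and 636, 602 and 503 CPM in PKI. In both genes a PKI library was the highest of 6 and PKI C the lowest.

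Enolase makes phosphoenolpyruvate, and its ENO2 isozyme is best known from neurons. ENO2 was at 7.06, 5.73 and 6.70 CPM in inPKI (181, 157 and 162 reads) and 8.90, 9.19 and 8.09 CPM in PKI (241, 276 and 185 reads). Every PKI library was above every inPKI library, the only member with that pattern, where 10.9% of all genes had it. The mean of inPKI was 6.50 ± 0.690 CPM (SD, n = 3) and that of PKI 8.73 ± 0.567 CPM (SD, n = 3). The log2 change of 0.38 ± 0.10 (SE) did not pass the test (limma unadjusted p = 0.00201, adjusted p = 0.154). Over the 18 alternative settings that gave one (DESeq2 did not) its adjusted p ran from 0.052 to 0.537. With 1 library left out its log2 change was between 0.30 and 0.43.

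ENO1, the main enolase, was at 2030, 2039 and 2003 CPM in inPKI and 2022, 2025 and 1711 CPM in PKI, so that PKI A and PKI B were inside the inPKI range. Its log2 change was -0.081 ± 0.095 (SE; limma adjusted p = 0.731). Per kilobase, ENO2 was 0.313%, 0.252% and 0.301% of the enolase pair in inPKI and 0.395%, 0.407% and 0.4245% in PKI. The ranges did not overlap, and the share stayed below 1 part in 100 in every library.

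PKM, pyruvate kinase, was at 1004, 1000 and 987 CPM in inPKI and 967, 959 and 854 CPM in PKI. The groups did not overlap, and the log2 change was -0.11 ± 0.075 (SE; limma adjusted p = 0.538). The counts are per gene, so the PKM1 and PKM2 splice forms were not separated. LDHA, the lactate dehydrogenase subunit typical of glycolytic cells, was at 983.5, 1007 and 979 CPM in inPKI and 960, 957 and 834 CPM in PKI. Groups again did not overlap, with PKI A and PKI B close under inPKI C (log2 change -0.11 ± 0.077 SE, limma adjusted p = 0.530). LDHB, the subunit typical of heart, was at 1021, 1037 and 957.5 CPM in inPKI and 917, 980 and 822 CPM in PKI. PKI B lay above inPKI C, so these groups overlapped, and the log2 change was -0.15 ± 0.080 (SE; limma adjusted p = 0.422, range over the alternatives 0.0741 to 0.885). LDHB was 61.5% ± 0.778 (SD, n = 3) of the pair per kilobase in inPKI and 60.8% ± 0.838 (SD, n = 3) in PKI, or 51.7% and 51.0% with the median transcript length.

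**Figure D2:**
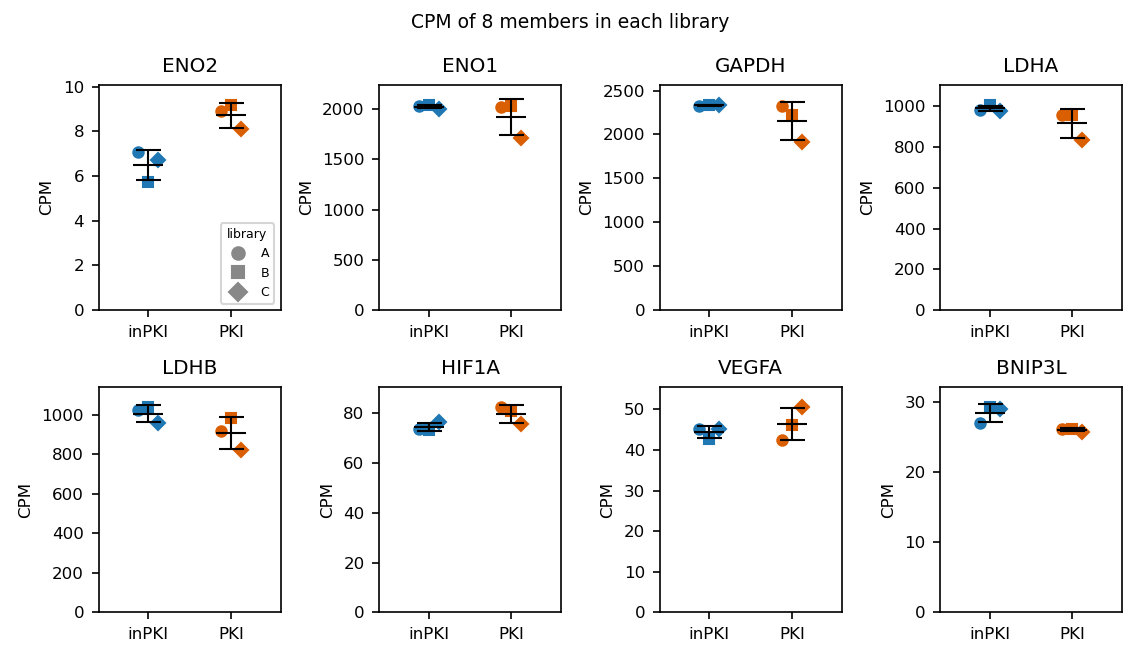
CPM (axis from 0) of 8 members in each library, with circles, squares and diamonds for libraries A, B and C, and bars for the group mean and SD (n = 3). ENO2 is higher in all PKI libraries (8.09 to 9.19 CPM against 5.73 to 7.06 CPM), and ENO1, GAPDH, LDHA and LDHB are lowest in PKI C.

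The abundant enzymes were lowest in 1 library. In the 10 enzymes with a mean of at least 200 CPM (GPI, ALDOA, TPI1, GAPDH, PGK1, PGAM1, ENO1, PKM, LDHA and LDHB), PKI C was the lowest of the 6 libraries in 10 of 10. Its values differed from the inPKI mean by -18.9% to -11.8%, while PKI A differed by -8.80% to 4.27% and PKI B by -5.11% to 1.09%. Over all 17 enzymes PKI C was lowest in 14, where it was lowest in 39.4% of all genes, whatever their level. The share among genes of at least 200 CPM was not counted. The median deviation of the 17 enzymes from the inPKI mean was -0.22 on the log2 scale in PKI C, -0.0059 in PKI A and 0.0075 in PKI B. Without PKI C the median log2 change of the enzymes was 0.0029, with 9 above 0 and 8 below. Without PKI A and PKI C, both of which stand apart, PKI B alone stood for the group and the median was 0.0075, with 10 above 0 and 7 below.

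Abundant genes as a whole moved in PKI C too. Among the 599 genes tested with a mean of at least 200 CPM, the median deviation was -0.16 in PKI C, -0.019 in PKI A and 0.0011 in PKI B, and among the 10 enzymes it was -0.24, -0.016 and -0.042. Of the 599 genes 426 lay between 200 and 500 CPM, where only GPI and PGK1 of the 10 enzymes lay, so the levels compared are unlike. In PKI C the median over all genes went from 0.078 under 2 CPM (1409 genes) to -0.21 between 500 and 1000 CPM (114 genes) and -0.24 at 1000 CPM and above (59 genes). ALDOC, at a mean of 13.0 CPM, was an exception to that order among the enzymes, with -0.25 in PKI C, and ENO2 was at 0.28. The deviations were also related to transcript length across 14231 genes, which are not independent replicates, with Spearman's rho of 0.342, 0.334 and 0.394 in PKI A, B and C. The median transcript length was 2654 nt for the enzymes and 3274 nt for all genes tested, and with length and GC trends removed the enzymes' median log2 change was -0.046. PKI C also had the fewest recovered reads of the 6 libraries. Its CPM summed to 754299.3 over all rows, against 773801.5 to 785006.9 in the other libraries. The part of level, length and depth in the enzymes' values was not tested.

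**Figure D3:**
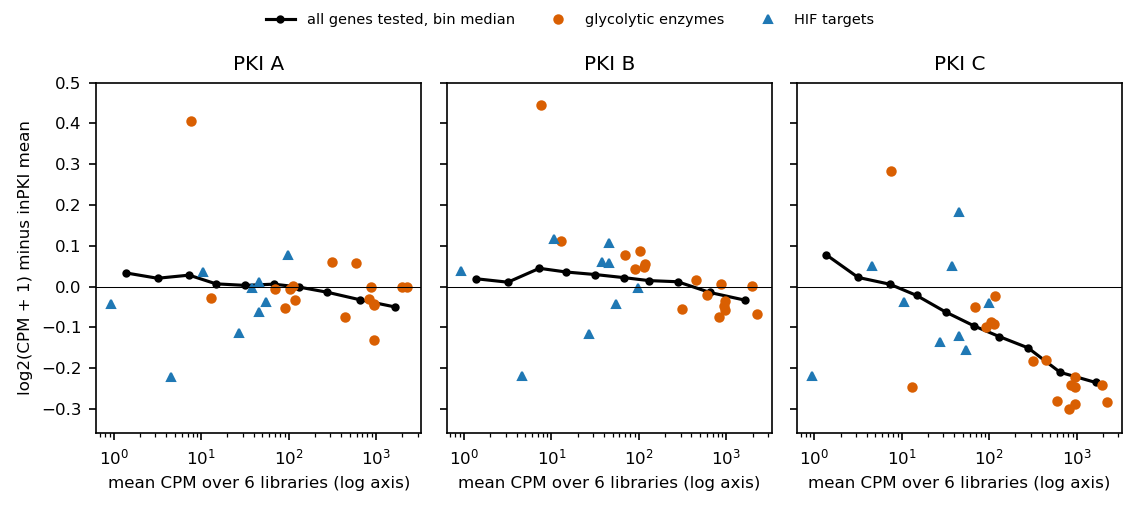
Deviation from the inPKI mean on the log2(CPM + 1) scale against mean CPM over 6 libraries (log axis), in a panel for each PKI library, with circles for the 17 glycolytic enzymes, triangles for 9 HIF targets and a line through the median of all genes tested in each bin of level. In PKI C the line descends from 0.078 to -0.24 and the abundant enzymes lie near or below its lower end. In PKI A and PKI B the line stays near 0.

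The flux regulators control the pathway at 2 gates. PFKFB3 and PFKFB4 make and break down fructose 2,6-bisphosphate, the activator of phosphofructokinase. PFKFB3 was at 73.45, 70.1 and 71.0 CPM in inPKI and 77.15, 75.8 and 71.3 CPM in PKI. PFKFB4 was at 8.50, 7.59 and 7.45 CPM in inPKI and 8.24, 6.52 and 7.04 CPM in PKI. Groups overlapped in both (log2 changes 0.062 ± 0.054 and -0.10 ± 0.10 SE). PFKFB3 was 87.9% ± 0.545 of the pair per kilobase in inPKI and 89.1% ± 1.05 in PKI (SD, n = 3), or 79.0% and 80.9% with the median transcript length.

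PDK1 and PDK3, which are pyruvate dehydrogenase kinases, hold back entry of pyruvate into the mitochondrial cycle. PDK1 was at 23.95, 25.9 and 24.5 CPM in inPKI and 26.3, 25.8 and 27.1 CPM in PKI. PKI B lay just under inPKI B, and the log2 change was 0.086 ± 0.063 (SE; limma adjusted p = 0.563). PDK3 was at 10.5, 9.01 and 9.93 CPM in inPKI and 10.2, 10.05 and 9.01 CPM in PKI, with both groups covering nearly the same range. The symbol PDK1 here is that of the pyruvate dehydrogenase kinase and not of the lipid-dependent kinase that carries the same short name. In all, 0 of 4 flux regulators passed the test and PKI C was the lowest library in 0 of them.

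HIF1A encodes the oxygen-regulated alpha subunit, which is controlled mainly as protein, a level that was not measured. Its transcript was at 73.8, 73.35 and 76.5 CPM in inPKI and 82.5, 81.0 and 75.6 CPM in PKI. PKI A and PKI B were above every inPKI library and PKI C was between inPKI A and inPKI C, with a log2 change of 0.094 ± 0.054 (SE; limma adjusted p = 0.454). The prolyl hydroxylases EGLN1 (PHD2) and EGLN3 (PHD3) mark HIF alpha for destruction and are themselves induced by HIF. EGLN1 was at 36.7, 38.3 and 37.9 CPM in inPKI and 37.5, 39.3 and 39.0 CPM in PKI. EGLN3 was at 10.3, 10.8 and 10.3 CPM in inPKI and 10.8, 11.45 and 10.2 CPM in PKI. Both groups overlapped, with log2 changes of 0.036 ± 0.056 and 0.038 ± 0.083 (SE).

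Of the other HIF targets, 0 of 7 tested passed the test. VEGFA, the vascular growth factor, was at 45.3, 42.8 and 45.2 CPM in inPKI and 42.5, 46.3 and 50.5 CPM in PKI. PKI A was the lowest and PKI C the highest of the 6 libraries, with a log2 change of 0.058 ± 0.066 (SE; limma adjusted p = 0.720). BNIP3 and BNIP3L, receptors for mitophagy, gave log2 changes of -0.0015 ± 0.066 and -0.12 ± 0.062 (SE). BNIP3 was at 47.5, 43.0 and 45.5 CPM in inPKI and 45.7, 48.85 and 41.55 CPM in PKI, with overlapping groups. BNIP3L was at 26.95, 29.25 and 29 CPM in inPKI and 26.15, 26.1 and 25.8 CPM in PKI. All PKI libraries of BNIP3L were below all inPKI libraries and close to one another, where 8.88% of all genes had PKI below, and the difference did not pass the test (limma adjusted p = 0.407).

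P4HA1, the collagen prolyl hydroxylase subunit, was at 52.6, 58.1 and 58.9 CPM in inPKI and 54.95, 54.8 and 50.6 CPM in PKI, with overlapping groups (log2 change -0.079 ± 0.061 SE). NDRG1, a stress-responsive gene, was at 101, 93.9 and 99.6 CPM in inPKI and 103.5, 97.9 and 95.4 CPM in PKI, with no separation of the groups. The least expressed targets rested on few reads. ADM, which encodes the vasodilator adrenomedullin, had 145, 103 and 123 reads in inPKI and 107, 119 and 114 in PKI, and its log2 change of -0.13 ± 0.14 (SE) was smaller than its error. ANKRD37, an ankyrin repeat gene, had 27, 32 and 18 reads in inPKI and 25, 31 and 16 in PKI (log2 change -0.075 ± 0.16 SE). CA9, carbonic anhydrase IX, whose induction in hypoxia is used as a marker, had 0 reads in all 6 libraries. A count of 0 allows up to 3 reads, which is 0.0998 to 0.131 CPM depending on the library, for counting error only.

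Set beside each other, the enzymes had a median log2 change of -0.079 and the HIF targets (2 prolyl hydroxylases and 7 other targets tested, without HIF1A) a median of -0.0015, with 4 above 0 and 5 below. In PKI C the medians of the deviations were -0.22 for the enzymes and -0.040 for the HIF targets. In PKI A they were -0.0059 and -0.038, and in PKI B 0.0075 and 0.037. The difference of these medians, enzymes minus HIF targets, was -0.18 in PKI C, 0.032 in PKI A and -0.030 in PKI B, and between -0.032 and -0.023 in the inPKI libraries. A gap between the classes thus appeared in 1 of the 3 PKI libraries. The classes differ in level too, with median CPM of 445 for the enzymes and 38.1 for the HIF targets.

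**Figure D4:**
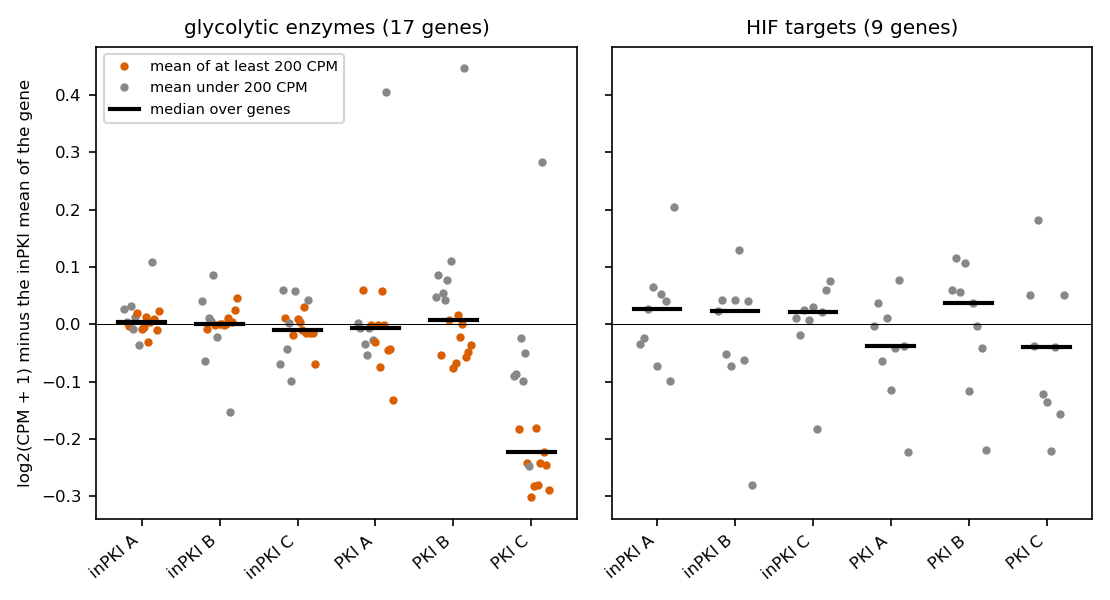
Deviation of each gene from its inPKI mean on the log2(CPM + 1) scale in each of the 6 libraries, for the 17 glycolytic enzymes (orange at a mean of at least 200 CPM, grey below) and the 9 HIF targets tested, with a bar at the median over genes. The enzyme median is -0.22 in PKI C and within 0.011 of 0 in the other libraries, and the HIF target medians lie between -0.040 and 0.037.

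As a description over 6 libraries of unlike depth, Pearson's r between pairs of enzymes had a median of 0.704, with 121 of 136 pairs above 0. All genes of a library share its depth and processing. Among the 10 abundant enzymes the median was 0.927, with 45 of 45 pairs above 0. The HIF targets had a median of -0.086 and 14 of 36 pairs above 0. PKI C, the library of fewest reads and the lowest in all 10 abundant enzymes, is 1 of the 6 points behind each of these values. No such value was computed for abundant genes at large, whose median was also low in PKI C, and the HIF targets are of lower level.

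The other genes of these pathways were tested in the same fit. Of 109 such genes in the table, 84 were tested and 0 passed the threshold in limma or edgeR, nor did any of the 56 for which DESeq2 gave an adjusted p. At an unadjusted p below 0.05 limma had 11 (13.1%, against 13.7% of all genes), 5 higher and 6 lower in PKI. None of 4 other glycolysis isozymes reached it. The testis isozyme LDHC had a log2 change of -0.25 ± 0.15 and ADPGK, an ADP-dependent glucokinase, 0.059 ± 0.059 (SE). Among 10 sugar and lactate transporters 1 did: SLC16A7, a monocarboxylate carrier, at 4.25, 5.14 and 4.26 CPM in inPKI and 6.17, 4.76 and 6.82 CPM in PKI (limma adjusted p = 0.311). BSG, the chaperone of such carriers, had a log2 change of -0.11 ± 0.067 (SE).

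Glycolysis regulators and branch enzymes had 3 of 22 genes at that unadjusted level, all lower in PKI. PGM1, which links glucose 1-phosphate from glycogen to glycolysis, was at 60.5, 60.4 and 59.8 CPM in inPKI and 56.2, 56.1 and 46.6 CPM in PKI. These groups did not overlap, and the log2 change of -0.19 ± 0.068 (SE) did not pass the test (limma adjusted p = 0.260). MPC2, of the mitochondrial pyruvate carrier, had a log2 change of -0.16 ± 0.072 (SE). Among 31 further HIF targets 1 reached that level: PPFIA4, at 6.44, 6.86 and 8.03 CPM in inPKI and 8.49, 8.15 and 11.4 CPM in PKI (limma adjusted p = 0.239). RORA, a nuclear receptor, had a log2 change of 0.23 ± 0.11 (SE).

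Factors that act on HIF had the most such genes, 6 of 17 (35.3%, against 13.7% of all genes), with EP300, CREBBP and SIAH1 higher and RBX1, ELOB and OS9 lower in PKI. Their transcript lengths were 9587, 10803 and 3352 nt for the 3 higher and 1188, 991 and 3870 nt for the 3 lower, and the part of length, which moved with the deviations in all PKI libraries, was not tested. EP300, a coactivator of both HIF and CREB, was at 135, 122 and 136.5 CPM in inPKI and 159, 134.5 and 156 CPM in PKI. The groups overlapped through PKI B, and the log2 change was 0.19 ± 0.068 (SE; limma adjusted p = 0.259). SIAH1, a ubiquitin ligase that acts on prolyl hydroxylases, was at 13.0, 12.7 and 13.6 CPM in inPKI and 14.9, 15.3 and 15.4 CPM in PKI. Its groups did not overlap, with a log2 change of 0.20 ± 0.074 (SE; limma adjusted p = 0.264). None of the 6 passed the test over all genes.

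Several members share sequence or position with other rows. Of the members, 14 have pseudogene rows (75 rows in all, 14 tested, 0 called). In inPKI their summed CPM came to 0.856% of GAPDH over 34 rows, 1.43% of TPI1 and 3.25% of BNIP3. PFKM overlaps SENP1 (39.3 CPM), BNIP3L overlaps PNMA2 (18.0 CPM) and ANKRD37 overlaps UFSP2 (10.7 CPM) on the opposite strand. So does CA9, the member with 0 reads, with ARHGEF39 (29.2 CPM). EGLN3 overlaps SPTSSA (24.1 CPM) and PGK1 overlaps ATP7A (21.15 CPM) on the same strand. Strand use in the counting is not given in the sources used here, so reads of these pairs may be split. ENO2 overlaps LRRC23, at 1.73 CPM, on the same strand.

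The authors' deposited table of their own comparison has an adjusted p for 25 of the members, 0 of them below 0.05. In the authors' deposited table the largest change of a member was that of ENO2, at 0.437 after its sign was turned to PKI minus inPKI, with a standard error of 1.09 and no p given. The authors' deposited table gives CA9 a mean of 37.75 normalized counts although its 6 libraries hold 0 reads here, so that table cannot rest on these 6 libraries alone.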

How the data were processed

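RNA of 6 libraries was sequenced after preparation with a TruSeq mRNA kit, per the labels' protocols. Per the submitters' processing notes the tools were cutadapt 1.14, STAR 2.5.2b, RSEM 1.3.0 and DESeq2 1.20.0 with genome build hg19. Their settings are not given in the sources used here. The authors deposited CPM values scaled by TMM, per the file headers. The authors' deposited table of comparisons holds a mean normalized signal (baseMean), log2 fold changes with standard errors, a test score (the statistic) and p-values. Its log2 sign is opposite to its own fold column in 30960 of 30960 rows, and is printed here turned.

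CPM values were whole multiples of 1 read within 0.01 reads for 100% of values, so reads were recovered. The main test was limma 3.58.1 (R 4.3.3) on log2(CPM + 1), with empirical Bayes moderation, a mean-variance trend and Benjamini-Hochberg adjustment over 14275 genes of at least 1 CPM in at least 3 libraries, 2-sided, threshold 0.05. Fold changes on that scale understate those of low genes. edgeR 4.0.16 and DESeq2 1.42.0 ran on recovered reads. An exact permutation test of 3 against 3 libraries cannot go below p = 0.1 and was not used. The scripts were tested on simulated data. Lengths and overlaps came from GENCODE 29 (GRCh38), matched by gene ID without version (99.7% of genes tested).

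Members and lists were chosen with earlier results of these data known. Values in every library are given for the 2 members of each role with the smallest p and for isozyme sets, and 2 genes of each other list are named by smallest p. Other members, and the overlapping and pseudogene rows, were picked for full values after their values were seen. The alternatives were other pseudocounts, filters, scalings, fits and tools, length and GC correction, and each library left out. Leaving out both PKI A and PKI C was chosen after seeing the data.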

Additional observations from a re-analysis of the deposited data

How the results depend on the processing

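Under 19 alternatives 0 of the 617 member values with an adjusted p passed the threshold (625 values in all, 8 from DESeq2 without one). The count of genes called among all genes, 18, became 4 with no filter on low values, 11 after rescaling to an equal sum, 4 without the trend, 144 with sample weights, 11 in edgeR, 216 in DESeq2, 9 after correction for length and GC, and 49 when both PKI A and PKI C were left out. That last setting leaves PKI B alone in its group, which is assumed to vary like the inPKI libraries. With 1 library left out it ran from 9 (without inPKI B) to 114 (without PKI B), and was 37 without PKI A and 46 without PKI C. No label says whether a letter pairs libraries. Deviations of same-letter libraries correlated at 0.017, 0.014 and 0.028, and each library correlated best with its own letter. Correlations this weak cannot settle whether a letter marks a shared culture or day. With the letter as a block 124 genes were called, 0 of them members, and the adjusted p of ENO2 was 0.0912. The median of HIF targets, -0.0015, became 0.037 without PKI A and PKI C and ran from -0.055 to 0.019 with 1 library left out, and that of the enzymes ran from -0.12 to 0.0029. The cause of these shifts was not tested.

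Of the 625 member values 65 were of opposite sign, in 20 members, and the log2 changes concerned are small. Median-ratio rescaling gave PFKL 4.5e-05. Rescaling to an equal sum gave HK2 0.0073, PFKL 0.0083, PDK3 0.0013 and BNIP3 0.0078. Sample weights gave SLC2A1 0.034, HK1 0.0030, HK2 0.024, ALDOC 0.0083, PDK3 0.025 and BNIP3 0.029. edgeR gave HK2 0.0072, PFKL 0.0070, PDK3 0.00080 and BNIP3 0.0096, and DESeq2 gave HK2 0.0067, PFKL 0.0065, PDK3 0.00061 and BNIP3 0.0090. Removing length and GC trends gave PFKL 0.0068, PDK1 -0.071, PDK3 0.050, EGLN1 -0.019, VEGFA -0.076, BNIP3 0.024 and ANKRD37 0.020. Without PKI A and PKI C the values were SLC2A1 0.036, HK1 0.048, HK2 0.086, PFKL 0.054, PFKM 0.043, ALDOA 0.0075, ALDOC 0.11, PGK1 0.016, ENO1 0.00076, PDK3 0.032, BNIP3 0.11, ANKRD37 0.037 and NDRG1 -0.0035.

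With 1 library left out, ranges that cross 0 were -0.071 to 0.050 for SLC2A1, -0.048 to 0.025 for HK1, -0.046 to 0.040 for HK2, -0.12 to 0.0032 for GPI, -0.029 to 0.015 for PFKL, -0.042 to 0.050 for PFKP, -0.12 to 0.0029 for ALDOA, -0.14 to 0.042 for ALDOC, -0.15 to 0.018 for PGAM1, -0.062 to 0.044 for PDK3, -0.00049 to 0.076 for EGLN3, -0.0032 to 0.12 for VEGFA, -0.055 to 0.059 for BNIP3 and -0.022 to 0.037 for NDRG1. Depth limits ADM and ANKRD37 most.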
